A study of Homo sapiens with 4 samples.

Results

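The promoters described here were the sites near the start of a single protein-coding gene where Flag-FLI1 was called with and without IFN-γ and where a full ETS site lay within 100 bp of the control summit. They numbered 1235 peaks at 1234 genes, of 7638 shared peaks at one-way coding promoters and of 30819 control peaks in all. The cells were HK1, a nasopharyngeal carcinoma cell line, with FLI1 overexpression, and the ChIP-seq used the Flag tag, so that the Flag antibody sees the tagged, overexpressed protein and not native FLI1. One library was from cells given PBS (the control) and one from cells given IFN-γ for 24 h, so there were no replicates, and no difference between the libraries was tested against replicate error. The deposited lists hold 30819 control peaks and 39654 IFN-γ peaks on GRCh38, and the 2 input libraries are not analysed here.

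Members were chosen by measured values. A control peak had to share 1 bp or more with an IFN-γ peak, and its summit had to lie within 1000 bp of the canonical transcription start site (TSS) of a protein-coding gene in GENCODE 44. A promoter counted as one-way if no canonical coding TSS on the opposite strand diverged from it within 1000 bp. The ETS octamer, CCGGAAGT or CAGGAAGT on either strand, had to lie within 100 bp of the control summit. That these promoters were called in both libraries, and that an octamer lay within 100 bp of the control summit, were therefore conditions of the choice and not results. Heights came from the same lists and are given as descriptions with no test.

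FLI1 belongs to the ETS family of transcription factors, whose shared DNA-binding domain reads a GGAA core with flanking bases that tune affinity. The family is large, and many members, among them the broadly expressed ELF1 and GABPA, bind the same octamer at CpG-rich promoters of genes that most cells need. The form with CC before the core is the high-affinity site of many family members and holds a CpG, whereas the form with CA does not. FLI1 is best known in blood and vessel development and, fused to EWSR1, in Ewing sarcoma.

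The peaks with the highest mean rank over both libraries show how the site sat in its promoter, and the sequences are printed from GRCh38, on the strand that reads GGAA, with octamers in capitals. Windows that met an annotated exon were kept to 30 bases.
ATXN2 (chr12:111599563-111599592, plus strand): gggactctttaCCGGAAGTcggaggggtca
CHAMP1 (chr13:114314293-114314352, minus strand): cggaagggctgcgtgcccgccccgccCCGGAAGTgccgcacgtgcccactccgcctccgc
CYP4V2 (chr4:186191472-186191501, plus strand): tccggaggcggCCGGAAGTgtcgccggcct
KDM5A (chr12:389290-389319, plus strand): tcaggacttttCCGGAAGTtaccgtgctgt
INTS1 (chr7:1504397-1504426, minus strand): ttccggttgttCCGGAAGTcgggtcctcga
FAM50B (chr6:3849264-3849323, minus strand): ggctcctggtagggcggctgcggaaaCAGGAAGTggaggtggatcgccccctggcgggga
EIF5A2 (chr3:170908828-170908857, minus strand): tgcgctccacgCCGGAAGTgcactaatccg
U2SURP (chr3:143001462-143001491, plus strand): aattactgacaCCGGAAGTcacgtgagcgg
POMP (chr13:28659074-28659103, minus strand): ccccacatccgCCGGAAGTgcgtccgtcct
In this set the octamers of *ATXN2*, *KDM5A*, *U2SURP* and *POMP* lay in exon 1 of an annotated transcript and the others upstream of the TSS. All but *FAM50B* carried the C-C form nearest the summit.

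*ATXN2*, which encodes an RNA-binding protein, had the highest fold enrichment in each list. The number of fragments piled up at its summit was 475 without and 583 with IFN-γ, and its fold enrichment was 232 and 223. Fragment counts here and below are not scaled for depth. By its lowest background the IFN-γ library was 1.46 times as deep, so equal counts are a depth-scaled ratio of 0.687. The ratio of *ATXN2* was 0.843. Fold enrichment here is the authors' value at the summit, taken as the pileup plus 1 over the local background plus 1. The 2 summits of *ATXN2* lay 6 bp apart.
At *KDM5A*, the gene of a histone H3 lysine 4 demethylase, pileups were 373 fragments (control) and 651 (IFN-γ), with fold enrichments of 93.1 and 176, and the summits lay 1 bp apart. *CHAMP1*, a zinc finger gene of chromosome alignment, had 374 and 409 fragments and fold enrichments of 112 and 115. *INTS1*, of the Integrator complex that processes small nuclear RNAs, had 225 and 254 fragments and fold enrichments of 110 and 89.99. Depth-scaled ratios were 1.20 at *KDM5A*, 0.751 at *CHAMP1* and 0.775 at *INTS1*. All 3 stood among the 20 highest of the control list, at ranks 19, 8 and 9, and at ranks 3, 9 and 17 of the IFN-γ list.
*EIF5A2*, a translation factor, had 193 and 295 fragments. *U2SURP*, of the U2 spliceosomal particle, had 193 and 283 fragments, and *POMP*, which assembles the proteasome, had 183 and 323 fragments. At these 3 promoters the control and IFN-γ summits lay 1 to 3 bp apart. Of the remaining members of this rank, *CYP4V2* had 202 and 313 fragments, and *FAM50B* had 315 and 337 fragments and 2 octamers. The unnamed coding gene ENSG00000290230 had 248 and 353 fragments and 2 octamers.

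As a set these promoters had higher peaks than one-way promoters without the octamer. The median fold enrichment was 17.4 (quartiles 11.2 and 26.5) in the control and 15.7 (10.1 and 24.1) in the IFN-γ list. At the 6403 shared one-way promoters without the octamer the medians were 9.83 and 7.42, and at 796 shared bidirectional promoters, of which 24.7% had the octamer, they were 12.8 and 10.5. Median pileups were 45 and 60 fragments, against 24 and 26 fragments without the octamer. Local background was close in both sets, with control medians of 1.43 and 1.36 fragments.
In the control list 50.9% of the promoters with the octamer (48.1% to 53.8%, exact Clopper-Pearson 95% interval, counting error only) ranked in the top 10% by fold enrichment, against 19.2% of those without. In the IFN-γ list the shares were 47.0% and 13.5%. Weak members were also present, since 91 promoters (7.37%) lay under the median of the control list and the lowest fold enrichment was 2.99.

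Because summits with the octamer lay nearer the TSS and in windows of lower GC share, heights were also set side by side within those classes. For summits within 50 bp of the TSS the median control fold enrichment was 19.4 with the octamer (601 peaks) and 12.2 without (1545 peaks). From 501 to 1000 bp it was 10.54 with the octamer (102 peaks) and 8.76 without (915 peaks). In windows under 60% GC, over 100 bp either side of the summit, the medians were 11.1 and 7.68, and at 70% GC or more they were 23.1 and 10.5. The medians were higher with the octamer in each of these classes, and so were the IFN-γ medians, at 16.8 against 9.07 nearest the TSS and at 17.0 against 6.95 in the windows richest in GC.

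**Figure D1:**
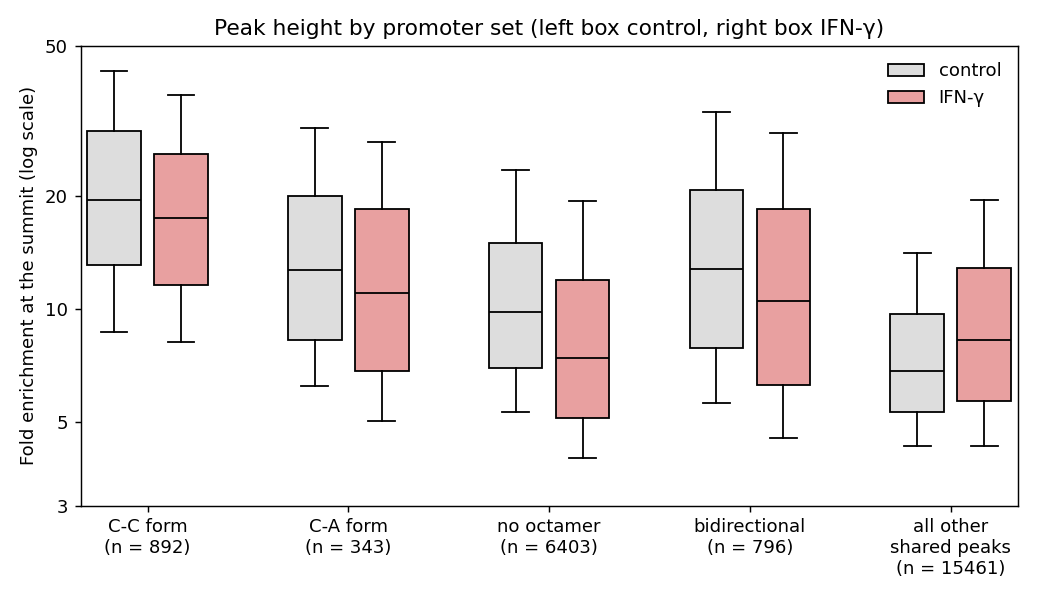
Fold enrichment at the summit on a log axis, for the control (left box) and IFN-γ (right box) library, with medians, quartiles and whiskers to the 10th and 90th percentiles. The C-C form had the highest medians, 19.4 and 17.5, the C-A form lay at 12.7 and 11.04, and promoters without the octamer lay at 9.83 and 7.42.

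The 2 forms of the octamer did not stand at equal heights. The octamer nearest the summit had the C-C form at 892 promoters, or 72.2% (69.6% to 74.7%), and the C-A form at 343. Median fold enrichments were 19.4 and 17.5 for the C-C form in the control and IFN-γ library and 12.7 and 11.04 for the C-A form. Among the 1129 promoters with a single octamer the control medians were 19.0 for C-C and 12.4 for C-A. The C-C form was far less frequent among octamers 300 to 1000 bp from the same kind of summit, where it made up 21.2% (18.4% to 24.3%) of 759. Taken by sequence alone, 780 of 1163 one-way promoters with an octamer within 100 bp of the TSS held the C-C form. The distant octamers therefore do not give its share at promoters in general.
A second octamer went with higher peaks. The 97 promoters with 2 octamers had median fold enrichments of 25.3 and 24.3, against 16.7 and 15.0 for those with 1. The 9 promoters with 3 had medians of 20.9 and 31.1, so the control median did not rise further. Among these 9, *ZNF623* had the highest control peak, with 151 and 155 fragments. *WDR37* had 96 fragments in both libraries and *VMA21*, an assembly factor of the proton pump of lysosomes, had 78 in both. *TIMMDC1*, an assembly factor of respiratory complex I, had 81 and 117 fragments, and *MINDY3*, a deubiquitinase, had 42 and 90. Scaled for depth, the ratios were 0.705 at *ZNF623*, 0.687 at both *WDR37* and *VMA21*, 0.992 at *TIMMDC1* and 1.47 at *MINDY3*.

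Bases beside the octamer also differed from those of distant octamers. A G followed the octamer in 55.0% of the promoters (52.2% to 57.8%), against 36.2% of the octamers 300 to 1000 bp away. An A stood before it in 25.2% against 17.9%, and a C in 27.6% against 34.5%. These shares pool both forms, and the C-C form made up 72.2% of the promoters' octamers and 21.2% of the distant ones. Promoters with G after the octamer had a median control fold enrichment of 19.4, and those with A, C or T there had medians of 15.5, 15.7 and 15.2. Their median GC shares were 67.7% with G and 63.7%, 66.7% and 63.7% with A, C and T. Heights rose with GC as given above, and the part of GC here was not tested. With the C-C form, an A or a G before the octamer went with control medians of 21.9 and 21.7 and a C with 16.4.

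Within the 100 bp that the rule allowed, octamers sat close to the summits. The centre of the nearest octamer lay within 25 bp of the control summit at 62.9% of the promoters and within 50 bp at 85.7%, with a median distance of 18.5 bp. The rule did not use the IFN-γ summit. The same octamer lay within 25 bp of that summit at 61.3% of the promoters and within 50 bp at 83.5%, again with a median of 18.5 bp. Some octamer lay within 100 bp of the IFN-γ summit at 94.0% (92.5% to 95.3%), and the same octamer at 92.6%.
The octamer was nearer the control summit at 619 promoters, nearer the IFN-γ summit at 586 and equally near both at 30. The 2 summits lay a median of 19 bp apart, and within 50 bp of each other at 84.8% of the promoters (82.7% to 86.7%), against 44 bp and 53.4% without the octamer. Peaks with the octamer were also higher, and summit distances were not compared at equal height. Peaks whose octamer lay within 25 bp of the control summit had a median control fold enrichment of 19.3, and those whose octamer lay 75 to 100 bp away had 10.7.

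**Figure D2:**
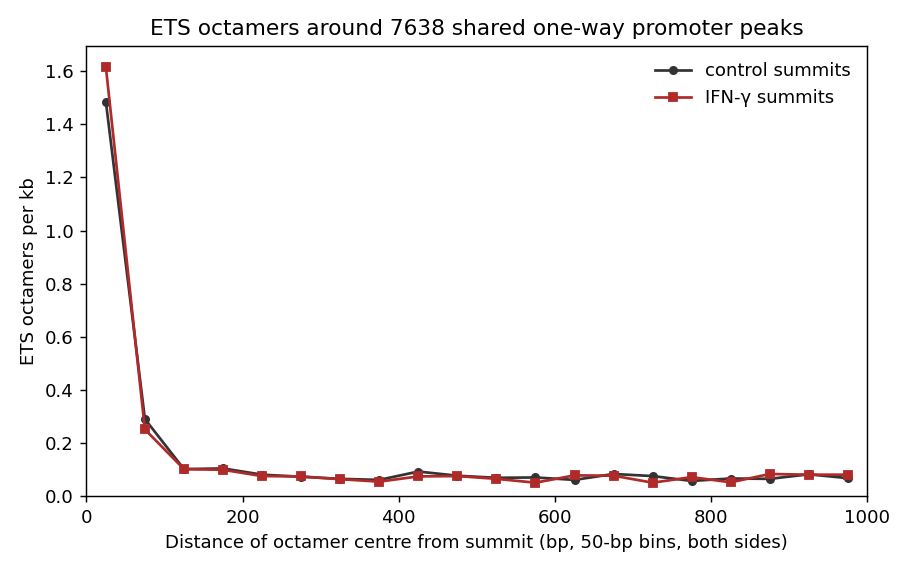
ETS octamers per kb (vertical axis) in 50-bp bins of distance (horizontal axis, both sides pooled) from the control and IFN-γ summits of all 7638 shared one-way promoter peaks. The density was 1.49 per kb within 50 bp of control summits and 1.62 per kb within 50 bp of IFN-γ summits, and 0.0681 and 0.0812 per kb from 950 to 1000 bp.

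Across all shared one-way promoters, which the octamer did not choose, density fell from 1.49 octamers per kb within 50 bp of the control summit to 0.291 from 50 to 100 bp and 0.102 from 100 to 150 bp. Of windows of the same width placed 500 bp either side of these summits, 1.499% held an octamer (1.31% to 1.70%), against 16.2% of the windows at the summits.

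Along the gene, the sites gathered just upstream of the TSS. The median octamer centre lay 20.5 bp upstream of the canonical TSS, 69.3% of the octamers were upstream and 63.5% were within 100 bp of it. By the exons of all transcripts of the gene, 532 octamers lay in exon 1 and 22 in another exon. Of those in no exon of the gene, 574 lay upstream of the canonical TSS and 107 in an intron. Starts of other transcripts further upstream were not considered for these. The GGAA strand was the sense strand in 52.6% (49.8% to 55.4%) and the antisense strand in the rest. Median control fold enrichments were 18.9 for sense and 15.7 for antisense octamers.

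The comparison was also made in the other direction, with promoters taken by sequence alone. Of 18075 one-way coding promoters, 1163, or 6.43%, had an octamer within 100 bp of the TSS. A shared peak lay at 75.6% of them (73.0% to 78.0%) and at 38.5% of the promoters without one (37.7% to 39.2%). With the C-C form 689 of 780 promoters had a shared peak, or 88.3% (85.9% to 90.5%), and with the C-A form alone 190 of 383 had one, or 49.6% (44.5% to 54.7%). Of the C-C promoters 88.8% had a control peak and 88.7% an IFN-γ peak.
CpG content moved with these shares. Where the observed over expected CpG ratio was at least 0.6, a shared peak lay at 87.1% of promoters with the octamer and 54.1% of those without. Below 0.6 the shares were 30.7% (24.9% to 37.0%) and 8.57% (7.86% to 9.32%). In both CpG classes the share was higher with the octamer.

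**Figure D3:**
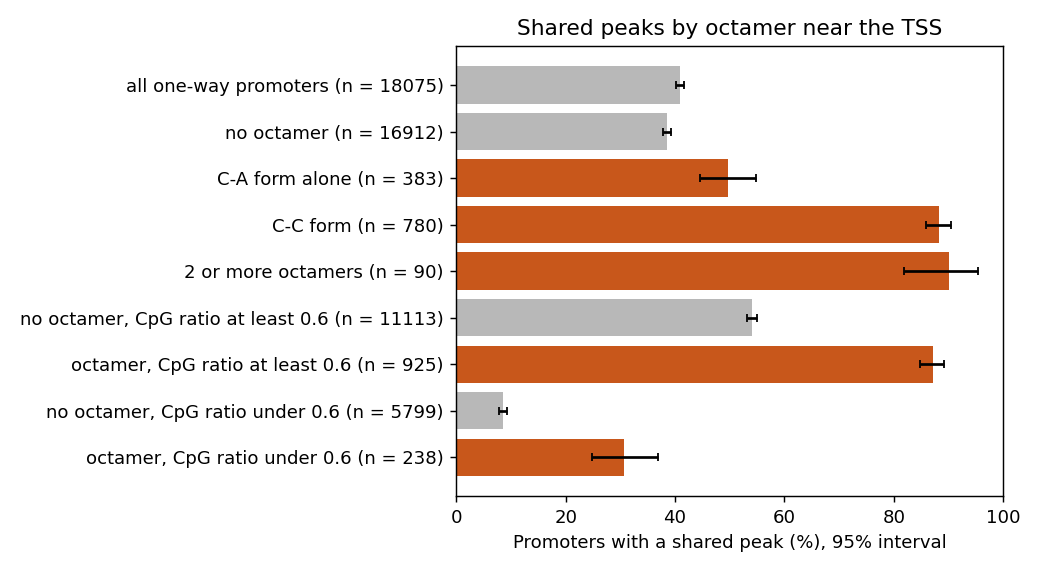
Share of one-way coding promoters with a shared peak (horizontal axis, percent, bars from 0, with Clopper-Pearson 95% intervals), by octamer within 100 bp of the TSS and by the observed over expected CpG ratio. Promoters with the C-C form reached 88.3%, those with the C-A form alone 49.6% and those with no octamer 38.5%.

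The question the 2 libraries pose is what IFN-γ did to this binding, and here they can only be set side by side. Pileups were divided by the relative depth of the libraries, 1.46, which is the ratio of their lowest backgrounds. The median IFN-γ to control ratio was 0.925 with the octamer (quartiles 0.756 and 1.14), 0.780 at one-way promoters without it and 1.02 over all 23895 shared pairs. At 967 promoters, or 78.3%, the exact binomial 95% interval of the ratio, which covers counting error only, held 1. It lay wholly above 1 at 94 (7.61%), against 12.5% of all shared pairs, and wholly below 1 at 174 (14.1%), against 7.39%.
Of all shared pairs, 8.12% had a ratio of at least 2 and 3.99% a ratio of 0.5 or less. With the octamer 23 promoters (1.86%) had a ratio of at least 2 and 31 (2.51%) a ratio of 0.5 or less, both under the background share. Without the octamer 1.28% and 9.32% of one-way promoters did. Median pileups were 45 and 60 fragments with the octamer but 19 and 29 over all shared pairs, and ratios of low counts scatter more. The part of counting error in these shares was not tested. Whether the treatment or other differences between the 2 libraries gave these ratios cannot be told apart.

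The ratio fell with the GC share of the window. With the octamer its median was 1.21 under 60% GC (277 promoters), 0.953 from 60% to 70% (537) and 0.787 at 70% or more (421). Without the octamer the medians in the same classes were 1.11, 0.856 and 0.687. The ratio thus differed more between GC classes than between promoters with and without the octamer, and it was higher with the octamer in each class. By the sum of both pileups, the medians with the octamer ran from 0.873 under 60 fragments to 0.957 at 120 fragments or more, and without it from 0.742 to 0.894. The part of GC content in the ratios was not tested.

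**Figure D4:**
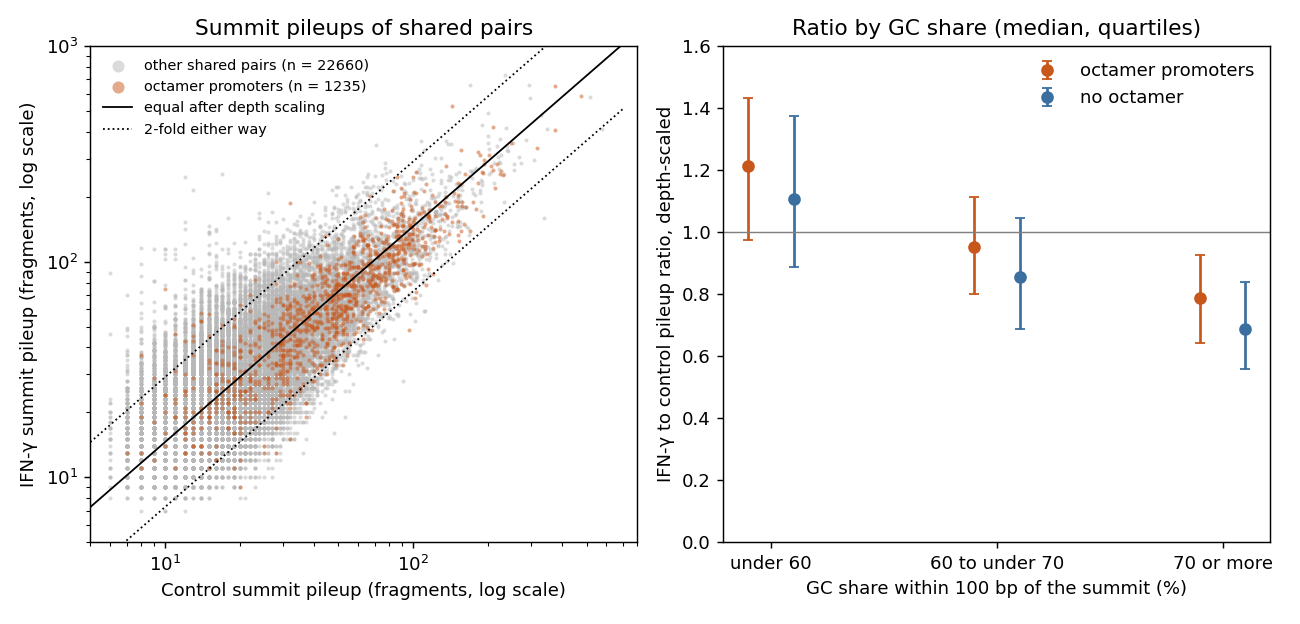
Left, IFN-γ against control summit pileup in fragments on log axes for 1235 octamer promoters and 22660 other shared pairs, with lines for equal depth-scaled pileups and for 2-fold differences. Right, the median and quartiles of the depth-scaled ratio by GC share of the summit window, with medians of 1.21, 0.953 and 0.787 for octamer promoters and 1.11, 0.856 and 0.687 without the octamer.

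The members at the ends of the ratio were named among the 983 with at least 60 fragments over both summits. Their sites are printed below. By the rule each held an octamer, and most had its C-C form.
TRIM15 (chr6:30163133-30163192, minus strand): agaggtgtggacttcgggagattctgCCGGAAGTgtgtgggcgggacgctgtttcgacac
TXNDC11 (chr16:11743729-11743758, minus strand): gcagaaccagaCAGGAAGTgatgagatttg
USP40 (chr2:233566109-233566168, plus strand): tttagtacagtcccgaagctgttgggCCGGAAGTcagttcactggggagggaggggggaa
YIPF4 (chr2:32277785-32277844, minus strand): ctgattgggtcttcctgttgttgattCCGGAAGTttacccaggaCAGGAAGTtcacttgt
RAPH1 (chr2:203535457-203535516, minus strand): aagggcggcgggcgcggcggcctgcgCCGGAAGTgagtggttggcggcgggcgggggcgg
ACVR2A (chr2:147844457-147844516, plus strand): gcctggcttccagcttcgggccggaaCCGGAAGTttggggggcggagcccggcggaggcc
TRAPPC10 (chr21:44012308-44012337, plus strand): cggcgccgaggCCGGAAGTggctgaggccg
ITM2C (chr2:230864922-230864951, minus strand): ctctgcaggcaCCGGAAGTttggatcccgc
*TRIM15*, a tripartite motif gene of the MHC class I region, had 32 fragments without and 186 with IFN-γ, and a depth-scaled ratio of 3.99 (2.73 to 6.01), with summits 3 bp apart. At *YIPF4*, a gene of Golgi membrane trafficking, the pileups were 15 and 57 fragments, a ratio of 2.61 (1.46 to 4.96), and the window held an octamer of each form. *TXNDC11* had 14 and 58 fragments and *USP40*, a deubiquitinase gene, 13 and 51, with ratios of 2.85 and 2.69. Each of these began from a control pileup of at most 32 fragments. The highest ratio, 5.15, was that of *NR1D1*, the gene of the clock repressor REV-ERBα, but its control summit of 10 fragments and the IFN-γ summit of 75 fragments lay 867 bp apart, so the ratio compares 2 places.
At the other end *RAPH1*, which encodes the actin regulator lamellipodin, had 96 fragments without and 48 with IFN-γ, at a ratio of 0.343 (0.238 to 0.491). *TRAPPC10*, of a vesicle tethering complex, had 102 and 68 fragments and a ratio of 0.458 (0.332 to 0.628). *ACVR2A*, an activin receptor gene, had 52 and 33 fragments, *LEPROTL1* had 45 and 30, and *ITM2C* had 49 and 33, with ratios of 0.436, 0.458 and 0.463. All 5 intervals lay below 1.

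Motifs of other factors were searched on both strands in the same windows, without regard to overlap with the octamer, and a match is a description of letters only. The SP1/KLF box GGGCGG was in 57.2% of the windows with the octamer, 64.1% of those without and 52.9% of windows of the same width at all one-way TSSs. The NFY box CCAAT was in 18.6%, 15.0% and 24.9%, the NRF1 core CGCNTGCG in 11.5%, 10.0% and 10.1%, and the YY1 core AAGATGGCG in 3.16%, 2.33% and 2.48%. The E-box CACGTG was in 8.02%, 6.90% and 5.42%, and the CRE TGACGTCA in 2.19%, 1.83% and 1.92%. A run of 4 or more GGAA units, the repeat known from EWSR1-FLI1, was in 0 of the 1235 windows, which allows a share of up to 0.298%, and in 12 of 6403 without the octamer.
Motifs tied to interferon or to AP-1 were in few windows. The ISRE core GAAANNGAA was in 42 windows, or 3.40%, against 4.11% without the octamer and 3.94% at all TSSs. The GAS pattern TTCNNNGAA, which can overlap the octamer, was in 5.67% against 3.19% and 3.66%, and the AP-1 site TGANTCA in 3.08% against 3.37% and 3.22%. Median IFN-γ to control ratios were 1.12 with the ISRE core, 1.03 with the GAS pattern and 1.15 with the AP-1 site, against 0.919, 0.922 and 0.922 without each. These windows were also poorer in GC, with medians of 59.95%, 62.2% and 61.4% against 66.7% without each, and GC moved with the ratio as above. An A before the octamer likewise went with a median ratio of 0.999 at 64.2% GC and a C with 0.859 at 67.7% GC.

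Of 7385 genes with a shared one-way peak 16.7% (15.9% to 17.6%) had the octamer at a summit, and gene lists, matched by symbol, were set beside this share with no test. Sites of the machinery genes with the highest control peaks are shown as examples, and by the rule each held an octamer. Fragment counts in these lists are not scaled for depth, and equal counts are a depth-scaled ratio of 0.687.
PSMD12 (chr17:67366568-67366597, plus strand): cgtcacccacaCCGGAAGTtgcccgcgcac
SNRPB (chr20:2470812-2470841, minus strand): agtgagctggaCCGGAAGTaggtttctacc
SNRPE (chr1:203861595-203861624, plus strand): ggttctttattCCGGAAGTtgctctcagag
EIF3G (chr19:10119911-10119940, minus strand): cgacggcggcaCCGGAAGTctcgttttcgc
POLR2C (chr16:57462642-57462671, minus strand): caccgccaacaCCGGAAGTcagtcagcgag
TAF12 (chr1:28643075-28643104, minus strand): ggggagcggtgCCGGAAGTagtcggggagg
MRPS34 (chr16:1773136-1773165, plus strand): cagcggtccggCCGGAAGTcaccggaagag
RPLP2 (chr11:809535-809564, minus strand): gtgcaccgctgCCGGAAGTggcctgcgccg
RPS19 (chr19:41859806-41859865, minus strand): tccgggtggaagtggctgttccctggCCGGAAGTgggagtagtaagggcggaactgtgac
CDK9 (chr9:127786011-127786040, plus strand): gcgccgcgaggCCGGAAGTggccgtggagg
Proteasome genes held it at 11 of 33 (33.3%, 18.0% to 51.8%) and spliceosome genes at 12 of 39 (30.8%, 17.0% to 47.6%). The proteasome regulatory subunit gene *PSMD12* had 103 control and 209 IFN-γ fragments. *PSMG3*, a proteasome assembly chaperone gene, had 83 and 77. Of the genes of core spliceosomal proteins, *SNRPB* had 122 and 188 fragments and *SNRPE* had 90 and 156. The median IFN-γ to control ratio was 1.04 for the proteasome list and 0.817 for the spliceosome list.

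Transcription genes were represented by TFIID, Mediator and general factors at 11 of 41 (26.8%, 14.2% to 42.9%) and by RNA polymerase subunits at 4 of 17. *TAF12*, of TFIID, had 86 and 75 fragments, and *POLR2C*, of RNA polymerase II, had 109 and 106. Both kinase and cyclin of the elongation factor P-TEFb were members, *CDK9* with 118 and 144 fragments and *CCNT1* with 97 and 195. They fell in the list of cell-cycle and replication symbols, which had the octamer at 9 of 61 (14.8%). Histone modifier and remodeller genes had it at 9 of 64 (14.1%), with *KDM5A* and the methyltransferase gene *SETD6*, at 85 and 116 fragments, the highest in the control list.

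Cytosolic ribosomal protein genes had the octamer at 17 of 64 (26.6%, 16.3% to 39.1%) with a median ratio of 1.29, and mitochondrial ribosomal protein genes at 9 of 44 (20.5%, 9.80% to 35.3%) with a median ratio of 0.848. *RPLP2*, a stalk protein of the large subunit, had 114 and 108 fragments, a ratio of 0.651 (0.495 to 0.854), while *RPS19*, of the small subunit, had 89 and 167, a ratio of 1.29 (0.991 to 1.69). *MRPS34*, of the small mitochondrial subunit, had 140 and 135 fragments, and *MRPL3*, of the large one, 81 and 100. Genes matched by translation initiation factor symbols, not all of them initiation factors, had it at 7 of 36. After *EIF5A2* the highest control peak there was that of *EIF3G*, at 109 and 118 fragments, a ratio of 0.744. Aminoacyl-tRNA synthetases had it at 3 of 23, with *CARS1* at 210 and 266 fragments, and respiratory chain and ATP synthase genes at 8 of 45, with *COX10* at 73 and 88.

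DNA repair genes had the octamer at 9 of 30 (30.0%, 14.7% to 49.4%). *ERCC5*, the gene of an excision repair nuclease, had 91 control and 148 IFN-γ fragments, and *ERCC6L2* had 93 and 137. The largest group was that of ZNF zinc finger genes, mostly of DNA-binding repressors, with 76 of 250 (30.4%, 24.8% to 36.5%). The intervals of the ZNF, proteasome and spliceosome lists lay above the share of all genes, that of the spliceosome list only just, at 17.0% against 16.7%. The intervals were not corrected for the number of lists, and the lists were chosen with earlier results known. The shares are therefore descriptions and not a test. The ZNF genes with the highest control peaks were *ZNF696* and *ZNF865*, with control fold enrichments of 76.5 and 74.9 and IFN-γ fold enrichments of 36.2 and 38.6. By pileup the change was smaller. *ZNF696* had 180 control and 176 IFN-γ fragments, a ratio of 0.672, and *ZNF865* had 158 and 181, a ratio of 0.787. *ZNF384*, chosen after its values were seen, had 144 and 529 fragments, an IFN-γ fold enrichment of 112 and a ratio of 2.52 (2.09 to 3.05). Vesicle transport genes stood at 20 of 96 (20.8%) and solute carriers at 14 of 125 (11.2%, 6.26% to 18.1%). *SLC25A6*, of the mitochondrial ADP/ATP carriers, had the highest control peak of the solute carriers, with a control fold enrichment of 53.1 and an IFN-γ fold enrichment of 17.0. Its pileups were 120 and 88 fragments, a ratio of 0.504.

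The list of keratins, collagens and integrins gave 1 member and the listed interferon response genes gave none. Of keratins, collagens and integrins with a shared one-way peak 1 of 24 had the octamer, *ITGB1*, the β1 integrin gene, at fold enrichments of 26.9 and 21.0. Of 17 IFN-γ response genes with such a peak 0 had it, which allows a share of up to 19.5%, so the intervals of both lists held the share of all genes. Among ETS factor genes 3 of 12 had it, namely *ELK4*, *ELK3* and *SPIB*. *ELK4*, with the C-A form, had fold enrichments of 41.0 and 41.5.

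**Figure D5:**
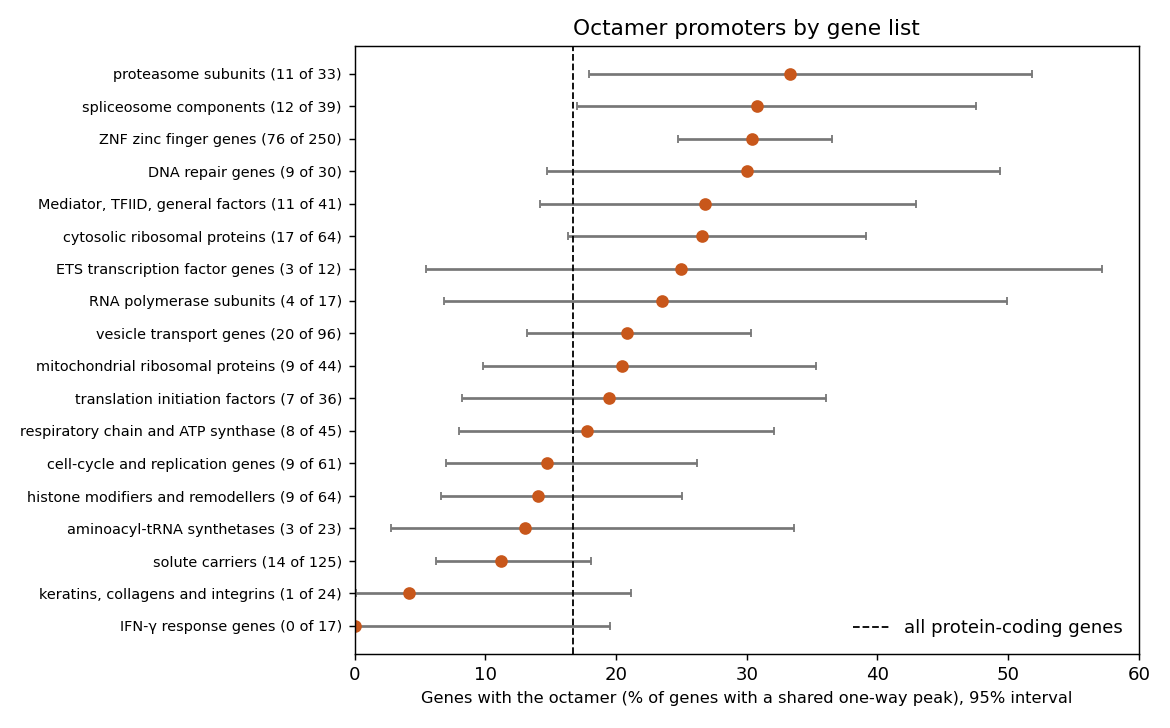
Share of genes with the octamer at the summit among genes with a shared one-way peak (horizontal axis, percent), by gene list, with counts beside the names and Clopper-Pearson 95% intervals. The dashed line is the share over all protein-coding genes, 16.7%, and the intervals of the ZNF list (24.8% to 36.5%), the proteasome list (18.0% to 51.8%) and the spliceosome list (17.0% to 47.6%) lay above it. The intervals were not corrected for the number of lists, and no test was made.

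The thresholds of the rule cut through a continuous range. The 23 shared one-way peaks whose octamer ended 91 to 100 bp from the control summit had median fold enrichments of 11.6 and 8.67, and the 14 at 101 to 110 bp, just outside, had 14.7 and 13.8. *MAPK8IP3* was inside at 100 bp with 37.8 and 33.3, and *TNPO3* outside at 101 bp with 81.6 and 50.3. Summits 901 to 1000 bp from the TSS numbered 14 with medians of 6.48 and 7.74, and 15 lay at 1001 to 1100 bp with 9.87 and 10.6. *CMPK1*, at 992 bp, and *CDK17*, at 1006 bp, were nearest to that threshold.
Starting from the IFN-γ list instead gave 1298 peaks of 7874 (16.5%) at 1295 genes. Of these genes 1152 were also chosen from the control list, which is 93.4% of the 1234 and 89.0% of the 1295.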

How the data were processed

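Peak lists of 2 Flag-FLI1 ChIP libraries of HK1 cells were analysed, 1 per condition. By the study's methods, the authors used Cutadapt 1.18 for trimming, Bowtie2 2.3.4.1 for alignment to GRCh38, picard for duplicates, MACS2 2.1.2 for peaks (p-value cutoff 0.01, per library) and ChIPseeker for annotation. Use of the input in calling is not given in the sources used here. The deposited lists give, per peak, a fold enrichment ratio over background, −log10 of the p-value and q-value, a display score, which was not used, and the summit offset. All deposited q-values were under 0.05, at a lowest −log10 q of 1.30.

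Whole-number pileups and backgrounds were recovered from fold and −log10 p, with a largest relative error of 6.21e-06. Median pileups were 16 (control) and 22 fragments (IFN-γ), so single ratios are imprecise. Each control peak was paired with the overlapping IFN-γ peak of nearest summit, a choice made after the values were seen. Peaks were matched to GENCODE 44 canonical TSSs and octamers searched in GRCh38. Gene lists were symbol patterns. The genes named were the 10 members with the highest mean rank of fold enrichment, the 5 highest and 5 lowest ratios with at least 60 fragments, the 5 with most octamers (ties by control fold), and the 2 highest control peaks of each list. Examples at the thresholds and in a single list were chosen after their values were seen. Members and lists were chosen with earlier results of these data known. Intervals are exact at 95% and cover counting error only. Alternatives changed overlap, q-value, TSS and octamer distance, divergence, scaling and pairing. Pileup recovery, TSS distance and divergence, overlap and octamer search were tested on simulated data and recovered 100% of known answers. Software was matplotlib 3.10.9, pysam 0.24.0, pandas 2.3.3, scipy 1.17.1 and numpy 2.4.6 on Python 3.11.15.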

Additional observations from a re-analysis of the deposited data

Results flagged for a closer look

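Peaks at one-way coding promoters with the octamer that were called in a single library lay outside the shared set and were looked at for that reason. In the control library 21 of 1544 such unshared peaks (1.36%) had the octamer, with a median fold enrichment of 5.83 and a highest of 12.7. In the IFN-γ library 47 of 648 (7.25%) had it, with a median of 5.13 and a highest of 17.3. Both shares lay under those of shared one-way peaks, 16.2% by the control summit and 16.5% by the IFN-γ summit. Of all one-way coding promoters 6.43% had an octamer within 100 bp of the TSS. Of all 30819 control peaks 23895 were shared. The strongest control-only sites were *ASAH1*, the acid ceramidase gene, with 29 fragments at its summit, *WDR76* with 25 and *FMR1*, the gene of an RNA-binding protein of neurons, with 23. The strongest IFN-γ-only sites were *TLR6*, a Toll-like receptor gene, with 63 fragments, *SP100*, the gene of a nuclear body protein that interferon is known to induce, with 57, and *CATSPERE* with 33. Sites without a call in the other list may still have had signal below its cutoff, which the lists do not record.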

How the results depend on the processing

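Of 84 values recomputed under alternatives, 73 stayed within the interval of the reported value or, for counts, within 1.5 times it. The other 11 are given here, and beyond what each alternative changes by construction the cause was not tested. As pileup over the lowest background of the library, median heights became 42.7 and 39.1. With the median ratio of all shared pairs set to 1, the median ratio became 0.904. At 1.5-fold, 88 promoters (7.13%) were higher and 180 (14.6%) lower, against 20.6% and 15.5% of all shared pairs. With summits within 500 bp of the TSS, 14 had a ratio of at least 2 and the share of the C-C form was 75.4%. With the 2 summits within 100 bp, that share was 74.8% and an octamer lay near the IFN-γ summit in 98.9%. With octamers within 50 bp, that last share was 88.9% and the median distance 15.5 bp. Pairing by the largest overlap, added after the values were seen, changed the partner of 7 members and gave 36 in place of 31 with a ratio of 0.5 or less. It took *ATXN2* from a ratio of 0.843 to 0.0217, against a peak whose summit lay 1505 bp away. No paired analysis was possible because only 1 library was made per condition.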

Other observations

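The share of shared one-way promoter peaks with the octamer varied between chromosomes, from 11.8% on chromosome 6 (51 of 434, 8.88% to 15.2%) to 24.02% on chromosome 19 (117 of 487, 20.3% to 28.1%) and 22.2% on chromosome 22 (40 of 180, 16.4% to 29.0%). Chromosome 19 holds many clustered ZNF genes, and its share without them was not computed.

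Where octamers occurred together within 100 bp of a control summit, 81 neighbouring pairs read GGAA on the same strand, 18 faced away from each other and 16 faced each other. Median centre-to-centre spacings were 39, 33 and 44 bp, and the most frequent single spacing, 32 bp on the same strand, was found in 5 pairs. A single promoter held 2 overlapping octamers as a palindrome, with fold enrichments of 28.5 and 35.0.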
